A study of Mus musculus with 69 samples.

Results

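The 10 genes described here encode the core of histone H3 lysine 9 (H3K9) methylation and of imprint protection in mouse embryonic stem cells (ESCs). They are Trim28, Setdb1 and Zfp57, the G9a/GLP pair Ehmt2 and Ehmt1, the SUV39H pair Suv39h1 and Suv39h2, and the HP1 genes Cbx1, Cbx3 and Cbx5. The genes were listed by name, with no threshold on measured values, and all 10 were found among the 16263 genes of the count table. All 10 passed the filter on low counts, which left 14061 genes for testing.

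The mRNA-seq data comprised 6 libraries, 2 from wild-type (WT) cells and 2 from each of the H3.3K27R clones Mut18 and Mut43. All cells were J1, a male mouse ESC line of 129S4/SvJae background, and in the clones both genes of the histone variant H3.3, H3f3a and H3f3b, had been edited with CRISPR-Cas9 so that lysine 27 became arginine. Each mutant line was 1 clone, and cells were kept on feeder cells before feeder-free passages. ATAC-seq, which maps open chromatin, gave 6 peak lists from the same lines in the same numbers.

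H3K9 methylation marks silent chromatin. KRAB zinc finger proteins such as ZFP57 bind DNA and recruit TRIM28, which brings in the methyltransferase SETDB1 and keeps retroelements silent. ZFP57 recognizes a methylated hexamer at imprinting control regions and preserves DNA methylation there. G9a and GLP form a dimer that adds mono- and dimethylation in euchromatin, SUV39H1 and SUV39H2 add trimethylation in pericentric heterochromatin, and the HP1 proteins bind the methylated lysine through their chromodomain.

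Open chromatin was found at the start sites of most of these genes. The promoters of 5 of them are shown, picked by the expression and accessibility results below. Cbx1, Suv39h1 and Cbx5 had the 3 largest differences in mRNA, Trim28 had the highest level, and Ehmt2 was the gene without an ATAC-seq peak at its RefSeq start. Where a gene had more than 1 RefSeq start, the one nearest to its strongest peak by an annotated start in WT replicate 1 was taken. The bases are those before the first annotated start in each RefSeq promoter window (GRCm38.p6), written 5′ to 3′ on the strand of the gene. The start shown for Cbx5 lies 24.5 kb inside the gene, whose most upstream annotated start also had a peak in all 6 ATAC-seq libraries, and that of Trim28 lies 25.0 kb downstream of its most upstream annotated start, where 0 libraries had one. Capitals mark matches on either strand to GGGCGG, a GC box, to CCAAT, to GGCGGGAA, an E2F site, or to TGCCGC, the hexamer of ZFP57.
Cbx1, chr11:96788885-96789126, plus strand: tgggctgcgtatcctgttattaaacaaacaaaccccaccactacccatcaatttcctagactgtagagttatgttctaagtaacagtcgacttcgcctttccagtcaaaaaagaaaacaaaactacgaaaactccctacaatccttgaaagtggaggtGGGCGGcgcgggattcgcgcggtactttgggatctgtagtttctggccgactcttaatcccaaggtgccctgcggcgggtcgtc
Suv39h1, chrX:8074761-8075010, minus strand: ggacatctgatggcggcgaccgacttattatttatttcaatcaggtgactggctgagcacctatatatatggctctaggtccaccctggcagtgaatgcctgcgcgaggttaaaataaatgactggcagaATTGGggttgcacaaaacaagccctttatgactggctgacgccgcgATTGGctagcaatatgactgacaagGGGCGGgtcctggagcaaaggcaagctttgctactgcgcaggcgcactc
Cbx5, chr15:103215367-103215602, minus strand: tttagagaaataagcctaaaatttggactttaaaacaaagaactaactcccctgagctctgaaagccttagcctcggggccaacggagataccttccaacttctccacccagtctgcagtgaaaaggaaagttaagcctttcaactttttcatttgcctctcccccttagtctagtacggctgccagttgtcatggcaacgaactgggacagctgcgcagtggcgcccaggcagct
Trim28, chr7:13023902-13024151, plus strand: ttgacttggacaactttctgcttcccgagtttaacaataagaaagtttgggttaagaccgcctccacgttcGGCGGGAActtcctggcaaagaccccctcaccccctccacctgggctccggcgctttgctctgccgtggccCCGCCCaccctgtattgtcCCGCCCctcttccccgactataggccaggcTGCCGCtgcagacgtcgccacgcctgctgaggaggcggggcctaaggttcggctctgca
Ehmt2, chr17:34898720-34898953, plus strand: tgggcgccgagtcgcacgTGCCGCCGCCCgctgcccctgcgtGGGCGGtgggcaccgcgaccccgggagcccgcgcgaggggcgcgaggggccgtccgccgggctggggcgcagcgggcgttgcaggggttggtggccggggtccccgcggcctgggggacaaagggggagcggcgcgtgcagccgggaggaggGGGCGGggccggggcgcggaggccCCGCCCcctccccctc

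In the full 250 bases before the RefSeq start, 9 of the 10 genes held a GC box on either strand, against 32.7% of 32817 mouse promoters. Zfp57 was the gene without one. The CCAAT motif was present in Setdb1, Zfp57 and Suv39h1, against 33.8% of all promoters. The E2F letters were found in Trim28 and Suv39h2 (1.85% of all promoters) and the letters of the ETS site CCGGAAG in Setdb1 (6.90%). TATAAA was found in 0 of the 10 (12.4% of all promoters). The ZFP57 hexamer was found in Trim28 and Ehmt2, against 8.68% of all promoters, and in Ehmt2 it overlapped a GC box read on the other strand. The 10 promoters had a median of 16.5 CpG in 250 bases, against 6 over all promoters, with 36 in Ehmt2 and 7 in Zfp57 and Cbx5. These matches describe letters in the window only. The background was all mouse promoters, those of genes not expressed here included, while all 10 genes were expressed. Shares over expressed genes were not computed, so these values are not shown to be particular to this set.

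The first question was whether mRNA of the H3K9 pathway differed between H3.3K27R and WT cells. Cbx1 was higher and Suv39h1 and Cbx5 were lower in all 4 mutant libraries, while the remaining genes differed from WT by 11.1% or less. The quasi-likelihood test of edgeR compared WT (n = 2 libraries) with mutants (n = 4 libraries). The libraries are duplicates of the WT line and of each clone, so edgeR p-values do not measure the spread between lines. Whether a difference came from the mutation or from the line was not tested. In this comparison, 7 of 10 genes had a Benjamini-Hochberg adjusted p-value under 0.05, against 48.0% of all tested genes. Trim28, Zfp57, Ehmt2 and Cbx1 were higher (23.5% of all genes were called higher) and Ehmt1, Suv39h1 and Cbx5 were lower (24.5%). None of the 10 passed a 2-fold change, as 8.93% of all genes did. All 10 intervals for the fold change lay within 2-fold in either direction. The median size of the log2 fold change was 0.15 over the 10 genes and 0.23 over all tested genes.

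**Figure D1:**
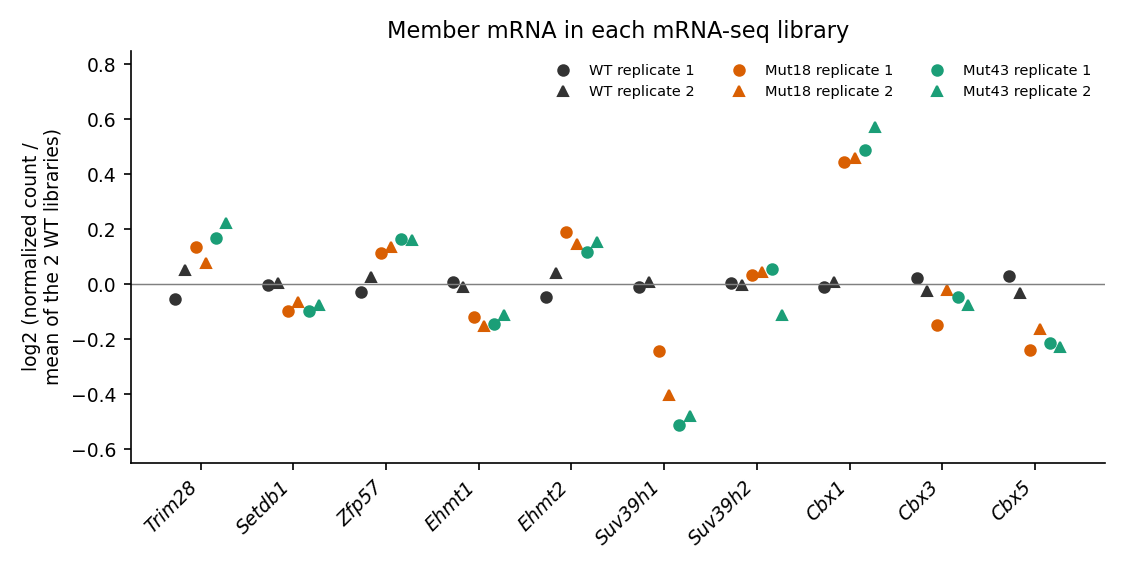
Normalized count of each gene in each mRNA-seq library, on the y axis as log2 of its ratio to the mean of the 2 WT libraries; colours give the line and symbols the replicate number. Cbx1, Trim28, Zfp57 and Ehmt2 lie above both WT libraries and Suv39h1, Cbx5, Setdb1 and Ehmt1 below them in all 4 mutant libraries.

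The groups did not overlap for 8 of the 10 genes, the exceptions being Suv39h2 and Cbx3, and this was so for 59.8% of all tested genes. Only Cbx1, Suv39h1 and Cbx5 were called under all 13 alternative settings and in each clone. The calls of Trim28, Zfp57, Ehmt1 and Ehmt2 were lost when WT replicate 1 was left out, with adjusted p-values of 0.103, 0.0850, 0.119 and 0.147. That of Ehmt1 was also lost without WT replicate 2 (adjusted p = 0.0701, edgeR).

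Total counts per library lay between 14992756 and 15143998. The 2 libraries of each line were further apart than counting noise, and p-values reflect the spread between these libraries only. The cells carried the markers of ESCs, with 12090 and 12810 normalized counts of Pou5f1 and 4583 and 4618 of Nanog in WT. Of 8 ESC markers, 7 were called higher in the mutants, Zfp42 by 0.72, Esrrb by 0.41 and Klf4 by 0.32 on the log2 scale, and Pou5f1 was called lower. Of 8 fibroblast markers, which feeder cells express, 7 were tested and 6 were called lower, with Postn at -2.22, Col3a1 at -2.16 and Dcn at -1.84. The call of Dcn was lost without WT replicate 1 (adjusted p = 0.122, edgeR). Their summed level was 3500 to 4755 in WT and 2115 to 2798 in the mutants, with the highest value in WT replicate 1, and Lum was listed at 0 in 1 WT and 2 mutant libraries. In bulk RNA, fewer cells of a type and less RNA per cell cannot be told apart. The part of feeder RNA in the differences below was not tested.

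TRIM28 is the corepressor that KRAB zinc finger proteins recruit. Trim28 (chr7:12999114-13031035) stood at 21670 and 23313 normalized counts in the WT libraries. The Mut18 libraries gave 24711 and 23727, and those of Mut43 25298 and 26238. Normalized counts are reads scaled to a common library size by the trimmed mean of M-values (TMM). All mutant libraries lay above both WT libraries, but the gap between the WT libraries was wider than that from WT replicate 2 to the lowest mutant library. The log2 fold change was 0.15 ± 0.041 (SE, adjusted p = 0.00453, edgeR), an 11.1% higher level.

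SETDB1 writes H3K9 trimethylation at the sites TRIM28 occupies. Setdb1 (chr3:95323525-95357202) gave 2298 and 2309 normalized counts in the replicates of WT, against 2155 and 2203 for Mut18 and 2154 and 2186 for Mut43. The mutant values were all below WT, but the difference of -0.08 did not pass the test (95% interval -0.17 to -0.00011, adjusted p = 0.0922, edgeR). With upper-quartile scaling it was called at -0.10 (adjusted p = 0.0409).

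ZFP57 is the KRAB zinc finger protein of imprinting control regions. Zfp57 (chr17:37001163-37010635) was measured at 3730 and 3877 normalized counts in WT cells, at 4115 and 4175 in the Mut18 clone and at 4270 and 4250 in the Mut43 clone. The groups did not overlap, and the log2 fold change was 0.14 ± 0.039 (SE, adjusted p = 0.00469, edgeR), a 10.5% higher level. The ratio of Zfp57 to Trim28 within a library was 0.169 in WT and 0.168 in the mutants, and the ranges overlapped (exact permutation p = 0.933). The ratio of Setdb1 to Trim28 was 0.102 in WT and 0.0871 in the mutants, without overlap.

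G9a, encoded by Ehmt2, and GLP, encoded by Ehmt1, act as a dimer. Ehmt2 (chr17:34898469-34914052) stood at 1574 and 1672 normalized counts in the WT libraries. The Mut18 libraries gave 1853 and 1796, and those of Mut43 1761 and 1804. Ehmt1 (chr2:24789928-24919614) gave 1680 and 1657 in the replicates of WT, against 1536 and 1503 for Mut18 and 1509 and 1546 for Mut43. The partners moved in opposite directions, with neither set of libraries overlapping. The log2 fold change was 0.15 ± 0.044 for Ehmt2 (adjusted p = 0.00715) and -0.13 ± 0.042 for Ehmt1 (adjusted p = 0.0128, SE, edgeR). Within libraries, the count of Ehmt1 was 1.03 times that of Ehmt2 in WT and 0.845 times in the mutants, a difference of log2 ratio of -0.28. The 4 mutant ratios all lay below the 2 WT ratios.

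SUV39H1 and SUV39H2 trimethylate H3K9 in pericentric heterochromatin. Suv39h1 (chrX:8061171-8074760) was measured at 1055 and 1066 normalized counts in WT cells, at 896 and 803 in the Mut18 clone and at 744 and 762 in the Mut43 clone. The WT libraries were close together, all mutant libraries were well below them, and both Mut43 values were below both Mut18 values. The log2 fold change was -0.40 ± 0.062 (SE, adjusted p = 1.92e-05, edgeR), a change of -24.5%, and it ranged from -0.46 to -0.37 over the alternatives. The 509 other tested genes of the X chromosome had a median log2 fold change of -0.14, which left -0.26 for Suv39h1 relative to its chromosome. Of the 35 tested genes within 1 Mb, 6 were called higher and 9 lower, with a median of -0.07. The X chromosome held 2.87% and 2.98% of ATAC-seq peaks in WT and 2.68% to 2.73% in the mutant lists. A difference in its copy number was not tested. The antisense gene Gm14820 overlaps 14.6% of the exon bases of Suv39h1, and strandedness of the counting is not given in the sources used here.

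Suv39h2 (chr2:3455815-3475031) stood at 675 and 671 normalized counts in the WT libraries. The Mut18 libraries gave 689 and 694, and those of Mut43 699 and 623. The values overlapped, and the log2 fold change of 0.01 did not pass the test (95% interval -0.12 to 0.14, adjusted p = 0.938, edgeR). Dclre1c on the opposite strand shares 8.10% of its exon bases. The count of Suv39h1 was 1.58 times that of Suv39h2 in WT and 1.18 times in the mutants. That ratio was lower in all mutant libraries, by 0.41 on the log2 scale.

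The HP1 proteins read H3K9 methylation. Cbx1, which encodes HP1β (chr11:96789127-96808640), gave 2539 and 2571 normalized counts in the replicates of WT, against 3475 and 3514 for Mut18 and 3586 and 3795 for Mut43. The lowest mutant library was far above the higher WT library. The log2 fold change was 0.49 ± 0.044 (SE, adjusted p = 1.33e-08, edgeR), a 40.6% higher level, and it ranged from 0.47 to 0.52 over the alternatives. Cbx1 lies on chromosome 11, where the 1186 other tested genes had a median log2 fold change of 0.39, and 0.11 of the difference remained relative to that median. Of 51 tested genes within 1 Mb of it, 37 were called higher and 5 lower, with a median of 0.42. Chromosome 11 also held 7.17% and 7.19% of ATAC-seq peaks in WT and 8.29% to 8.34% in the mutant lists. A difference in chromosome copy number was not tested.

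Cbx5, which encodes HP1α (chr15:103191544-103239816), was measured at 7437 and 7118 normalized counts in WT cells, at 6166 and 6501 in the Mut18 clone and at 6271 and 6217 in the Mut43 clone. All mutant libraries were below WT, with a log2 fold change of -0.21 ± 0.038 (SE, adjusted p = 1.12e-04, edgeR) and a change of -13.6%. The other tested genes of its chromosome had a median of -0.0041.

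Cbx3, which encodes HP1γ (chr6:51470360-51483704), stood at 5795 and 5617 normalized counts in the WT libraries. The Mut18 libraries gave 5147 and 5630, and those of Mut43 5534 and 5417. The second Mut18 library lay between the WT libraries, and the difference of -0.07 did not pass the test (95% interval -0.16 to 0.014, adjusted p = 0.163, edgeR). Cbx3 has 8 annotated pseudogenes named after it, and reads they share with Cbx3 make its count uncertain. The 16 other tested genes within 1 Mb of Cbx3 had a median of -0.67, and 11 of them were called lower.

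**Figure D2:**
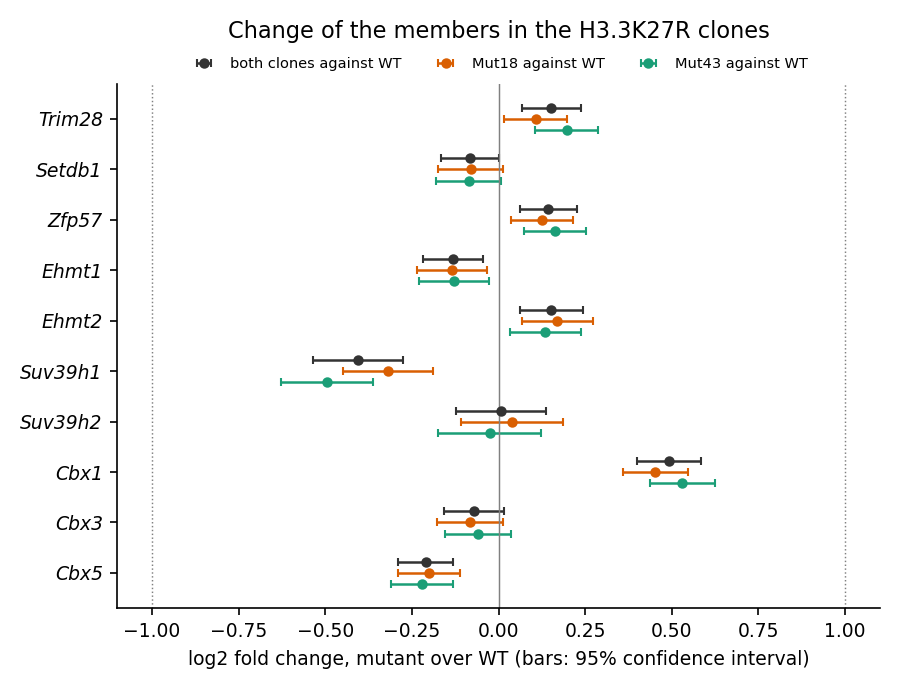
Log2 fold change of each gene on the x axis, with 95% confidence intervals, for both clones together and for each clone against WT; dotted lines mark a 2-fold change. Cbx1 lies highest (0.49) and Suv39h1 lowest (-0.40), and no interval reaches a dotted line.

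The balance among the 3 HP1 genes was compared within libraries, where scaling between libraries has no effect. Per kb of exon, Cbx1 made up 24.9% and 25.8% of the summed HP1 level in the WT libraries, against 34.5% and 33.1% for Mut18 and 34.1% and 35.8% for Mut43. The share of Cbx3 was 40.2% or more in WT and 37.8% or less in the mutants, and that of Cbx5 was 33.9% or more and 29.1% or less. Shares add up to a fixed total, so a higher share of Cbx1 lowers the others, and Cbx3 itself was not called. Cbx1 lies on chromosome 11, whose other tested genes had a median log2 fold change of 0.39. With the length of the longest transcript, chosen after seeing the data, the share of Cbx5 was 21.2% to 21.7% in WT, below that of Cbx1 (27.4% to 28.4%), and 17.9% or less in the mutants, where Cbx1 had 35.7% to 38.4%. On the count scale, the log2 ratio of Cbx1 to Cbx5 was higher by 0.70 in the mutants, that of Cbx1 to Cbx3 by 0.56 and that of Cbx3 to Cbx5 by 0.14.

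Of the 7 ratios computed, 6 did not overlap between WT and mutants, and each of these had p = 0.0667 in a two-sided exact permutation test. Among single genes, 59.8% of all tested did not overlap, and the share over other pairs of genes was not computed. Some of the 7 ratios share a gene, so they are not independent. In that permutation test, 0.0667 is the smallest p that 15 splits of 2 and 4 libraries allow, so the design cannot reach 0.05. The splits treat libraries as separate units, but they are duplicates of 1 WT line and 2 clones. The test therefore does not measure the spread between lines. The adjusted value over the 7 ratios was 0.0778.

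**Figure D3:**
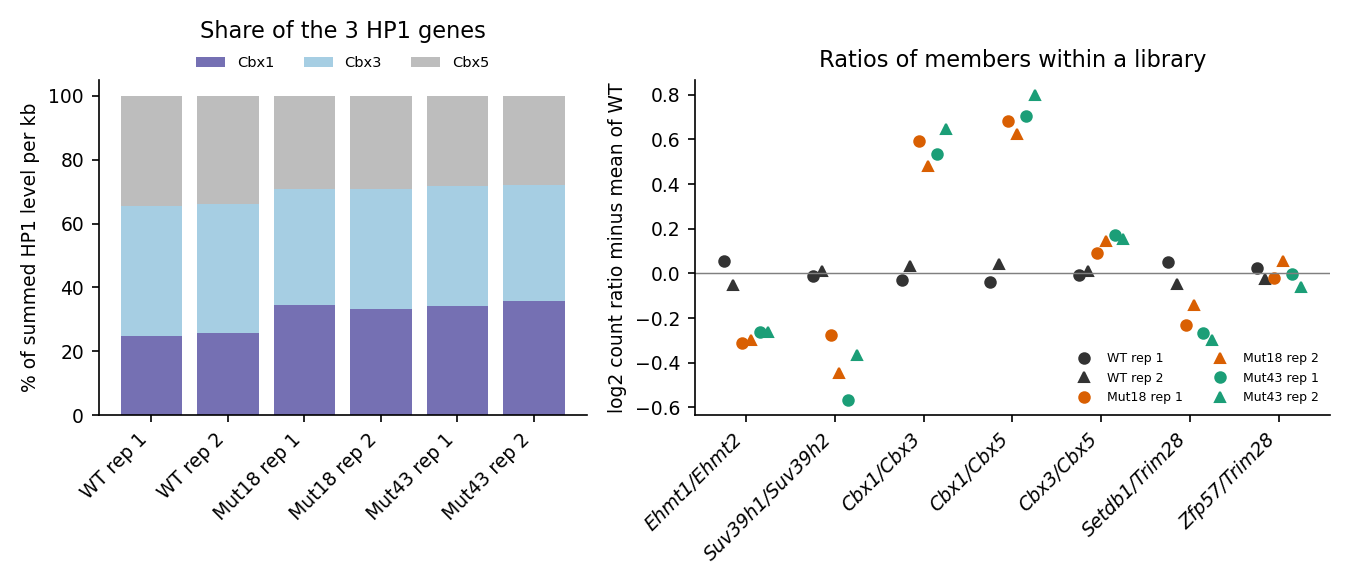
Left, stacked bars of the share of Cbx1, Cbx3 and Cbx5 in their summed level per kb of exon in each library; right, log2 count ratio of 2 genes in each library minus the WT mean, with colours for lines and symbols for replicates. Cbx1 takes 24.9% to 25.8% in WT and 33.1% to 35.8% in the mutants, and 6 of 7 ratios, some of which share a gene, separate WT from mutants.

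Levels were compared between genes as normalized counts per kb of merged exons. In WT, Trim28 was highest at 5409 and stood at the 99.3 percentile of tested genes, followed by Zfp57 at 1005, Cbx3 at 952, Cbx5 at 808 and Cbx1 at 598. Setdb1 at 336, Ehmt2 at 296, Ehmt1 at 206, Suv39h1 at 201 and Suv39h2 at 153 followed. No neighbours in this order overlapped between the WT libraries. Ehmt1 and Suv39h1, at 204 to 207 and 200 to 202, lay closest.

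Cbx1 took the fourth place from Cbx5 in both clones, with 818 against 703 in Mut18 and 864 against 693 in Mut43, and Ehmt2 passed Setdb1. Suv39h1 and Suv39h2 overlapped in Mut18 (152 to 170 and 156 to 157) and in Mut43 (141 to 145 and 141 to 159). With the length of the longest transcript in place of merged exons, only 4 genes kept their WT rank, and Cbx1 then stood above Cbx5 in WT as well.

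**Figure D4:**
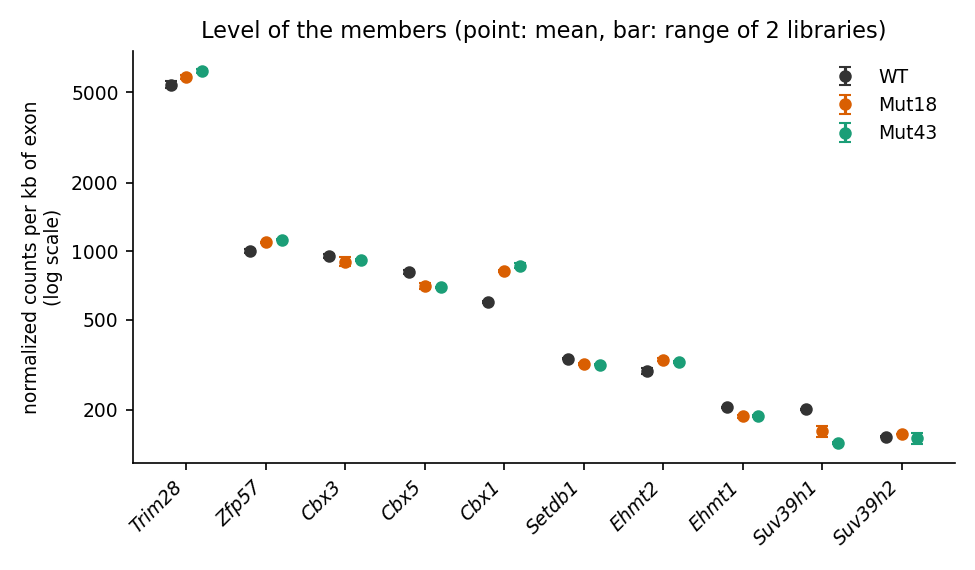
Normalized counts per kb of merged exons on a log axis, with the mean (point) and range (bar) of the 2 libraries of each line. Trim28 stands at 5409 in WT, and Suv39h2 is lowest at 153.

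Each clone was also set against the same WT libraries. In Mut18, 6 of 10 genes were called, against 41.3% of all genes. Trim28 missed the threshold there at 0.11 (adjusted p = 0.0516, edgeR), and 6 of the 13 alternatives called it, with adjusted p-values from 0.0106 to 0.0497. In Mut43, the same 7 genes were called as with both clones, against 46.8% of all genes. The call of Ehmt1 was lost in Mut43 under 8 of the 13 alternatives, with adjusted p-values up to 0.191, and in Mut18 under 6, up to 0.148. That of Ehmt2 was lost under 5 in Mut43 (adjusted p-values up to 0.239) and under 2 in Mut18 (up to 0.116), and that of Zfp57 under 3 in Mut18 (up to 0.174). Cbx3 was called lower in Mut18, at -0.15, when Mut18 replicate 2 was left out (adjusted p = 0.0325, edgeR). Suv39h1 differed from WT by -0.32 in Mut18 and by -0.49 in Mut43, Cbx1 by 0.45 and 0.53, and Cbx5 by -0.20 and -0.22.

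Between the clones, 0 of 10 genes were called by edgeR, against 0.327% of all genes. DESeq2 and limma-voom also called 0. In edgeR, 1 of 10 genes, Suv39h1, had an unadjusted p under 0.05, as did 1198 of all 14061 tested genes. The difference of Suv39h1 between Mut43 and Mut18 was -0.17 (95% interval -0.31 to -0.039, unadjusted p = 0.0137, adjusted p = 0.40, edgeR). That of Trim28 was 0.09 (95% interval -9.51e-05 to 0.18, adjusted p = 0.587, edgeR). All 10 intervals between clones lay within 2-fold.

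Other genes of the pathway were read from lists of partners, opposing enzymes and targets. Over 7 lists of factors, 16 of 44 tested genes were called higher and 7 lower, and 2 changed beyond 2-fold, where 23.5%, 24.5% and 8.93% of all tested genes did. The share called, 23 of 44, was near the 48.0% of all genes. Among 9 partners of SETDB1 and TRIM28, 4 were higher and 1, Resf1, was lower. Atf7ip, which stabilizes SETDB1, was higher by 0.26 on the log2 scale (adjusted p = 5.76e-05, edgeR), with 1326 and 1305 normalized counts in WT and 1545 to 1598 in the mutants. Sumo2, on chromosome 11, was higher by 0.25 and Morc3 by 0.23.

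In the HUSH complex, which silences with SETDB1, Pphln1 (periphilin) was lower by a log2 fold change of -0.69 (adjusted p = 2.04e-10, edgeR). It had 1455 and 1451 normalized counts in WT and 871 to 929 in the mutants, well apart. Its effector Morc2a, on chromosome 11, was higher by 0.31, and the other 2 HUSH genes were not called. Of 3 G9a/GLP partners, Cdyl was higher by 0.37, and Wiz and Zfp644 were not called.

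All 4 other H3K9 methyltransferase genes were called. Setdb2, Prdm2 (0.20) and Prdm16 (0.88) were higher and Mecom (-1.30) was lower. The call of Setdb2 was lost without WT replicate 1 (adjusted p = 0.158, edgeR) or WT replicate 2 (adjusted p = 0.0853, edgeR). The levels of Mecom and Prdm16 were low, at 11.2 to 43.9 and 41.2 to 101.8 normalized counts. Of 7 genes for imprint protection and DNA methylation maintenance, 3 were higher and 2 lower. Dppa3, which protects imprints in the early embryo, was higher by 1.85 (adjusted p = 2.38e-13, edgeR), with 254 and 231 normalized counts in WT and 812 to 934 in the mutants. Zfp445, a second imprint KRAB zinc finger gene, was lower at -0.28, and Uhrf1, the partner of DNMT1, was higher by 0.22.

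Of 7 HP1-linked heterochromatin genes, 1 was called, Atrx, at 0.19 (adjusted p = 0.00561, edgeR). It had 5513 and 5070 normalized counts in WT and 5415 to 6268 in the mutants, which overlapped, and its call was lost without WT replicate 2 (adjusted p = 0.0839, edgeR). Of 10 tested H3K9 demethylase genes, 3 were higher and 2 lower. Kdm3a was higher by 0.28, Jmjd1c was lower at -0.34, and Phf2 was lower at -0.42, a call lost without WT replicate 1 (adjusted p = 0.103, edgeR).

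Known targets of the machinery were read from 3 lists, whose genes were not all silent in WT. Of their 47 tested genes, 9 were called higher and 28 lower, and 17 changed beyond 2-fold, against the same shares of 23.5%, 24.5% and 8.93% over all genes. Among 32 tested genes of imprinted domains, 7 were higher and 18 lower, with a median log2 fold change of -0.28 against -0.0041 over all genes. Of those higher, Ddc, Zrsr1 and Commd1 lie on chromosome 11, whose tested genes had a median of 0.39. Grb10, on the same chromosome, was lower at -3.98. The largest differences were in Mirg, Meg3 and Rian, noncoding RNAs of one chromosome 12 domain, at -4.69, -4.24 and -4.23. Meg3 had 3048 and 3025 normalized counts in WT and 142 to 182 in the mutants.

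Of 9 tested germline genes that are silenced in ESCs, 2 were higher and 4 lower. Dazl was higher by 0.73, and Taf7l and Slc25a31 were lower at -1.01 and -0.65, calls that were lost without WT replicate 1 (adjusted p = 0.0603 and 0.219, edgeR). All 6 tested 2-cell genes linked to the retroelement MERVL were lower. The levels of Zfp352, Tcstv3 and Usp17la were low, at 2.0 to 32.3 normalized counts, and the groups overlapped for Tcstv3. Zscan4f, Zscan4c and Zscan4d had log2 fold changes of -2.80, -2.67 and -2.60, and copies of this family share reads.

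The genes whose pattern over the 6 libraries was most like that of Cbx1 were Ldhb, Tmem64 and Mgarp, with Pearson's r of 0.9996, 0.9991 and 0.9990 of log2 normalized counts. None of the 3 lies on chromosome 11. The 6 points fall into WT and mutants, and 1301 of 11075 genes had an r over 0.95.

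Promoter accessibility was read from ATAC-seq peaks called in each library. All 10 genes had a peak within 1000 bp of an annotated start in all 6 libraries, as did 89.3% of tested protein-coding genes. In Ehmt2 the strongest such peak lay inside the gene, near the start of a retained-intron transcript, at chr17:34910966-34911289 in WT replicate 1 and between positions 34911915 and 34912356 in the other 5 lists. Ehmt2 has 2 RefSeq starts, and no library had a peak within 1000 bp of the one shown above. The promoter of that start is the GC-richest of the 10 at 84.0% GC. The other 9 had a peak near the RefSeq start in all libraries. For Ehmt2, Zfp57, Suv39h1, Cbx3 and Cbx5, which have more than 1 RefSeq start, the start was chosen by its closeness to a peak. A peak there was thus favoured in advance. The strongest peak covered the start itself in all 6 libraries for 7 genes. At Ehmt1 it did so in 3 libraries. At Cbx3 it covered the start, at 51470616, in both WT libraries and in no mutant library. In the mutants that peak ended between 51470510 and 51470561. No test was made on the extent of peaks.

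At these starts, the fold enrichment of the strongest peak was 9.74 and 10.4 in WT and 9.49 to 11.2 in the mutants for Setdb1. It was 9.13 and 9.76 in WT and 8.83 to 10.2 in the mutants for Suv39h1. For Cbx1 it was 4.29 and 5.43 in WT and 5.24 to 5.72 in the mutants, and for Cbx5 it was 8.78 and 9.98 in WT and 8.47 to 10.3 in the mutants. These ranges overlapped, although the mRNA of the last 3 genes differed. Of the 9 genes, 1, Zfp57, did not overlap, and this was so for 22.3% of 10843 RefSeq starts of tested protein-coding genes with a peak in all 6 libraries. Zfp57 showed 6.28 and 6.53 in WT against 7.58 and 7.59 for Mut18 and 6.75 and 6.62 for Mut43, and no test was made on peak heights, which carry no read counts.

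**Figure D5:**
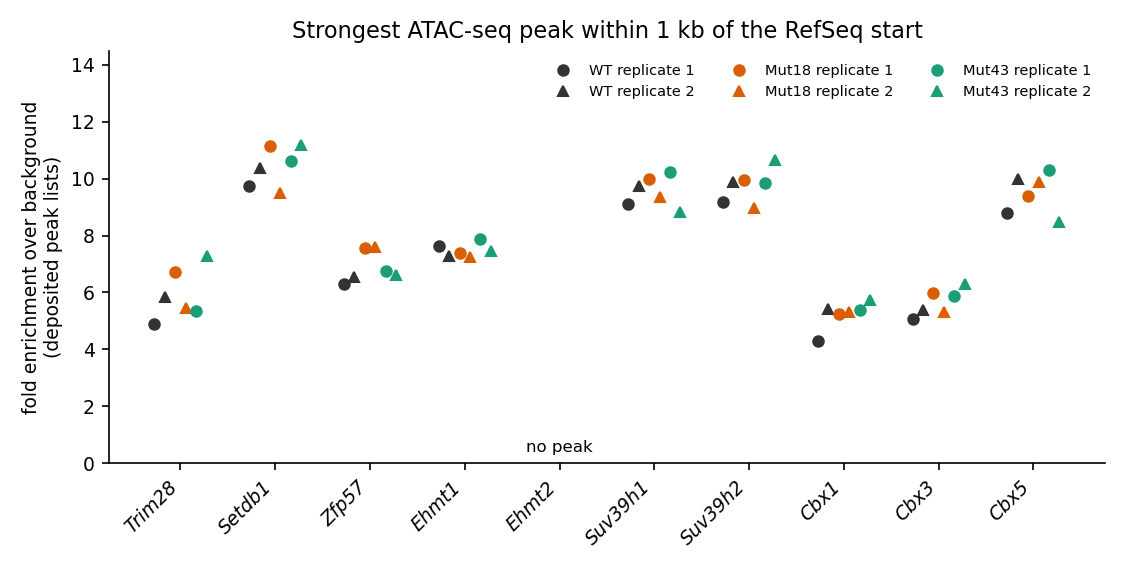
Fold enrichment over background of the strongest ATAC-seq peak within 1 kb of the RefSeq start of each gene, in each library; colours give the line and symbols the replicate number. Only for Zfp57 do all mutant libraries lie apart from WT (6.62 to 7.59 against 6.28 and 6.53), and Ehmt2 has no peak.

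Around the 10 genes, from 10 kb before to 10 kb after, peaks of the 6 libraries merged into 55 regions. Of these, 35 had a peak in all 6 libraries, 6 in both WT libraries and no mutant, 0 in all mutants and no WT, and 14 in other combinations. Over 50345 regions around tested protein-coding genes, 57.4% had a peak in all 6 libraries, 2.44% in both WT libraries and no mutant, and 0.749% in all mutants and no WT. The WT-only pattern needs 2 lists and the mutant-only pattern 4, so that these counts are not on one scale. The WT-only regions lay at Cbx5 (2), Trim28, Ehmt2, Suv39h1 and Cbx3. That at Suv39h1, chrX:8073892-8074144, lay 114 bp from an annotated start, and those at Cbx5 were chr15:103182298-103182603 and chr15:103216201-103216360. Peaks numbered 67416 and 78536 in WT and 63588 to 69811 in the mutants, so that WT replicate 1 had the longest list, and a region missing from a list may lie below its threshold.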

How the data were processed

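For 6 mRNA-seq libraries, the authors deposited raw counts, whole numbers of reads per gene without normalization. Reads had been mapped to mm10 combined with the fly genome dm6. The submitters' processing notes name STAR, Bowtie2 2.3.4.2, SAMtools, DESeq2 and deepTools 3.3.0 without roles, and the counting program and annotation are not given in the sources used here. For ATAC-seq, the authors deposited peaks for each library with a fold enrichment (ratio to background) and a -log10 q, and MACS2 is named. The other samples were not analysed here.

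Groups came from sample titles. Counts were filtered by edgeR 4.0.16 (R 4.3.3, minimum count 10, minimum total 15), scaled by TMM and tested with its quasi-likelihood F test, with Benjamini-Hochberg adjustment over 14061 genes. Clones were compared in a fit with 3 lines. Coordinates are of GRCm38 (GENCODE), and promoters came from RefSeq. Permutation tests used scipy 1.17.1. The expression fits were tested on simulated data. Depth was 14992756 to 15143998 counts a library, and the peak lists carry no depth.

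All 10 members are named with their values. From each list, up to 3 genes are named, those with the largest change among called genes whose groups did not overlap. Pou5f1, Nanog, Lum, Resf1, Setdb2, Wiz, Zfp644, Atrx, Ddc, Zrsr1, Commd1 and Grb10 fall outside this rule, as do Zfp352, Tcstv3 and Usp17la. These genes were picked once their values had been seen. Members and lists were chosen with earlier results of these data known. Alternatives were other scalings, no filter, DESeq2 1.42.0, limma-voom (limma 3.58.1), a replicate term and each library left out, and for ATAC-seq other windows, thresholds and starts.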

Additional observations from a re-analysis of the deposited data

Results flagged for a closer look

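Suv39h2 was flagged because 1 of its 4 mutant libraries stood apart. Mut43 replicate 2 had 623 normalized counts, while the other 3 had 689, 694 and 699, and the gap to the nearest made up 0.865 of the range, above Dixon's 95% critical value for 4 samples. This was 1 of 26 sets of 4 mutant libraries examined, and chance flags about 1 in 20. Without that library, the difference of Suv39h2 between Mut43 and WT was 0.06 in place of -0.03, and neither passed the test.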

How the results depend on the processing

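The calls of Cbx1, Suv39h1 and Cbx5 held their direction and significance under all 13 alternatives in the pooled comparison and in each clone. With each library left out in turn, the number of genes called higher ranged from 1 to 4 with both clones, from 1 to 4 in Mut18 and from 3 to 4 in Mut43, and the number called lower from 2 to 3 in the pooled comparison. The lowest pooled count of 1 came without WT replicate 1. That count of 1 in Mut18 came without WT replicate 1 or Mut18 replicate 1. In these fits a lone library was assumed to vary like those of the other lines. Suv39h2, not called, changed sign to -0.011 with upper-quartile factors, to -0.0014, -0.0054 and -0.0039 without Mut18 replicate 1, Mut18 replicate 2 and Mut43 replicate 1, and over the libraries left out it reached 0.045. In Mut43 it ranged from -0.105 to 0.056, the latter without its replicate 2. The Zfp57 to Trim28 ratio difference ranged from -0.033 to 0.017 on leaving out a library, changing sign without WT replicate 1 (0.017) and Mut43 replicate 2 (0.010). With the longest transcript as length, 4 of 10 genes kept their rank. A peak in every library at the most upstream start was found for 7 genes, and at starts of coding transcripts, an alternative chosen after seeing the data, for 9. Same-numbered libraries did not deviate together (r from -0.012 to 0.024), so the numbers were not treated as pairs. With a replicate block, 4 genes were called higher and 3 lower in the pooled comparison, and Ehmt1 in Mut43 lost its call (adjusted p = 0.0542, edgeR). Scaling without chromosome 11 also gave 4 and 3 there, but in each clone it lowered the genes called lower from 3 to 2, with Ehmt1 lost (adjusted p = 0.0747 in Mut18 and 0.0887 in Mut43, edgeR), and it raised those called higher in Mut18 from 3 to 4. The cause of these changes was not tested.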
